A study of Mus musculus with 7 samples.

Results

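The basement membrane genes described here are 10 of the 30590 rows of an RNA-seq table of mouse embryonic stem cells forming embryoid bodies, chosen by name: 4 laminin alpha chains (Lama1, Lama2, Lama4, Lama5), 2 beta chains (Lamb1, Lamb2), 1 gamma chain (Lamc1), 2 nidogens (Nid1, Nid2) and perlecan (Hspg2). All 10 were present and all 10 entered the tests. There were 7 libraries of polyadenylated RNA, 2 each for days 0, 2 and 4 and 1 for day 6, all from the Bry-GFP line, a name used for cells with GFP placed at the Brachyury gene. Day 0 cells grew on mouse embryonic feeder cells with 15% fetal bovine serum and LIF at 1000 U/mL. Day 2 cells had spent 48 h in suspension without feeders, serum or LIF, seeded at 75000 cells per mL, and had formed embryoid bodies. Day 4 cells had then received Noggin (150 ng/mL), Wnt3a (25 ng/mL) and Activin A (9 ng/mL) for 48 h to induce primitive streak. Day 6 cells were kept as aggregates with basic FGF (10 ng/mL), without Noggin, Wnt3a or Activin A, for another 48 h. Serum and LIF stayed absent on days 4 and 6. One cell line was used, and the labels call the replicates biological without saying whether they came from separate cultures, so p-values measure only the spread between these libraries.

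Basement membranes are thin sheets of matrix on which epithelia rest. Laminin is their first polymer: an alpha, a beta and a gamma chain join as a coiled coil inside the cell, and the alpha chain carries the end that cell receptors (integrins and dystroglycan) hold. Nidogens bind the gamma chain and link the laminin sheet to collagen IV and perlecan, a large heparan sulfate proteoglycan. In the early mouse embryo and in embryoid bodies the laminin of chains alpha 1, beta 1 and gamma 1 is laid down between the outer endoderm and the epiblast, and its gamma chain is required there. Chain alpha 5 is the wide-spread chain of later epithelia, alpha 4 that of vessels and mesenchyme and alpha 2 that of muscle and nerve.

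Levels are log2 of 1 plus scaled reads, a value that does not correct for gene length. Rough depth was 2710000 to 5460000 reads per library, and 3 reads would give a level between 1.45 and 2.30. Of the 10 genes, 9 lay above the 3-read level in every library, the exception being Lama2 in day 2 replicate 2. The labels' stem cells carried their defining markers (Pou5f1, the Oct4 gene, at 11.34 and 11.40 on day 0), but day 0 libraries also carried fibroblast markers (whether feeders were removed before lysis is not stated), with the summed level of 12 fibroblast markers at 14.34 and 14.52 (day 0), 10.77 and 10.30 (day 2), 8.71 and 8.68 (day 4) and 9.00 (day 6). The relation of a library's levels to the GC content of transcripts also differed: across 11800 genes the correlation of GC with the deviation from the gene's mean was -0.30 in day 2 replicate 2 and -0.34 on day 6, and between 0.02 and 0.30 in the other 5 libraries.

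Promoters are shown for 4 of the members that the results turn on: 3 that fell at the first step (Lamb1, Nid1 and Hspg2) and, for comparison, Lama5, which was not called there. RefSeq's promoter table (GRCm38.p6) matched 6 of the 10 genes. Each sequence runs 5′ to 3′ on the gene's strand from 250 bases before to 50 bases after the start. Capitals mark GGGCGG, the core of the GC box bound by Sp1-type factors, on either strand (CCGCCC on the other). The Lamb1 window lies at chr12:31265043-31265342 (plus strand), that of Nid1 at chr13:13437352-13437651 (plus), that of Hspg2 at chr4:137468553-137468852 (plus) and that of Lama5 at chr2:180225810-180226109 (minus).
Lamb1: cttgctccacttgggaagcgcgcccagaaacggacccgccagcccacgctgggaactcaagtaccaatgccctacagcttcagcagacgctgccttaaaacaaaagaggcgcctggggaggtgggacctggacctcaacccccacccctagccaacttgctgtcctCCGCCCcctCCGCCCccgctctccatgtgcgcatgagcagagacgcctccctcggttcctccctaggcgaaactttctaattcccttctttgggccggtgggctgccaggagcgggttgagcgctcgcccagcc
Nid1: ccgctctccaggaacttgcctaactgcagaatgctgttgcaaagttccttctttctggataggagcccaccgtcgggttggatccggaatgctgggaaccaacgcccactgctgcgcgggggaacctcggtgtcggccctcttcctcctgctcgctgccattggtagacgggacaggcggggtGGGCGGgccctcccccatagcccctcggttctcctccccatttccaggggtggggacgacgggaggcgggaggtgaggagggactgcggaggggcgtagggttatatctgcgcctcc
Hspg2: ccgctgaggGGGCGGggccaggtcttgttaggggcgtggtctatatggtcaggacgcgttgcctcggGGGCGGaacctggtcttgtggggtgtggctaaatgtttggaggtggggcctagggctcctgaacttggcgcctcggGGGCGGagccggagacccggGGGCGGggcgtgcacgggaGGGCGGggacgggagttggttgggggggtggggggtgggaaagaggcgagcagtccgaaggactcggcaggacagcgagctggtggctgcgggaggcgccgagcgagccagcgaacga
Lama5: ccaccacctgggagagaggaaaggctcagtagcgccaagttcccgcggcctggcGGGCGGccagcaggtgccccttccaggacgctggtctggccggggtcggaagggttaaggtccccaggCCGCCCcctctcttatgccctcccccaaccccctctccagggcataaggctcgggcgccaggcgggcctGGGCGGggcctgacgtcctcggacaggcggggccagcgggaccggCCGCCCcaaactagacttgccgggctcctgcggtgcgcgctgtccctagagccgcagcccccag

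The GC box letters occurred 2 times in the Lamb1 window, 1 time in that of Nid1, 5 times in that of Hspg2 and 4 times in that of Lama5. The Lama2 window held 1 match and that of Lamb2 held 0. Of all 32851 promoter windows of this length, 35.7% held at least 1 match and 19.5% at least 2. The windows of Lamb1, Nid1, Hspg2 and Lama5 were rich in CG dinucleotides, with 18, 20, 27 and 24 against a median of 7 over all windows, whereas those of Lama2 and Lamb2 held 1 and 4. TATAAA (13.6% of all windows, both strands) and AGATAA, the letters of a GATA factor site (11.2%), occurred in none of the 6. The Lama2 window (27616893 to 27617192 on chromosome 10, minus strand) lies inside the GENCODE M21 gene model, away from its start at 27619758. The matches describe the letters only, and any part of GC boxes in the levels was not tested.

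The comparison of day 2 with day 0 asks what changed as the stem cells left feeders, serum and LIF and aggregated. These changes of culture came at the same step and cannot be told apart. Of the 10 genes, 7 fell and 0 rose by limma's moderated test with Benjamini-Hochberg adjustment over all genes; 6.20% of the 21813 genes tested fell and 5.76% rose (12.0% called in all). At an unadjusted p under 0.05 the counts of the 10 genes were the same, 7 down and 0 up, against 2621 down and 3241 up of the 21813. All 10 genes averaged log2 of 11 or more over the 7 libraries. Of the 11800 genes that did, 989 fell and 1145 rose by the same adjusted p. The median log2 difference of the 10 was -1.76, against 0.05 for all genes tested and 0.14 for those 11800. With levels centred on the median deviation from gene means, 945 genes rose and 1579 fell (1257 and 1352 without), and 7 of the 10 fell. The libraries of the 2 days did not overlap for 8 of the 10, all lower on day 2, a pattern met by 21.6% of all genes. The fitted falls ran from -0.80 for Lamc1 to -3.09 for Nid1, with Lama2 at -2.87, and without day 2 replicate 1 Lama2 (-3.48) was past Nid1 (-3.23). Lama1, Lama5 and Nid2 were not called.

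Day 4 against day 2 covers the step under the streak-inducing factors. By limma 1 of the 10 genes, Nid1, fell and 0 rose, where 2.13% of all genes fell and 1.45% rose (3.59% in all). At an unadjusted p under 0.05, 2 were lower and 1 higher, against 2449 lower and 2264 higher of the 21813 genes tested. By limma's adjusted p, 412 of the 11800 genes averaging log2 of 11 or more fell and 247 rose. The median log2 difference of the 10 was 0.08, against 0.00 for all genes. Lama4 and Nid1 were lower without overlap of libraries, as were 22.0% of all genes, and Lamb2 was higher without overlap, as were 20.9%.

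Day 6 against day 4 is the step at which basic FGF replaced Noggin, Wnt3a and Activin A. The factor added, those withdrawn and the further 48 h cannot be told apart. The comparison rests on a single day 6 library that is assumed to vary like those of the other days. Here 5 of the 10 genes fell by limma (Lama5, Hspg2, Nid2, Lamb1 and Lamc1) and 0 rose, where 3.18% of all genes fell and 1.27% rose (4.46% in all). The split over all genes, 278 higher and 694 lower, was 445 and 545 with a pseudocount of 8, and 362 and 247 by limma without trend or robust settings. At an unadjusted p under 0.05, 5 were lower and 2 higher, the latter being Lama2 and Lama4. Of the 21813 genes tested, 2771 were lower and 2742 higher by that measure. By limma's adjusted p, 660 of the 11800 genes averaging log2 of 11 or more fell and 194 rose. The median of the 10 was -0.82, against 0.00 for all genes. The day 6 library lay below both day 4 libraries for 7 of the 10, as it did for 29.1% of all genes, above both for Lama2 and Lama4 (38.0% of all genes) and between them for Nid1.

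Over the replicated part of the course, day 4 against day 0, 6 of the 10 (Lama2, Lama4, Lamb1, Lamc1, Nid1 and Hspg2) fell by limma and 0 rose. Over all genes 10.4% fell and 11.3% rose (21.7% in all). Of the 11800 genes averaging log2 of 11 or more, 1677 fell and 2052 rose. Unadjusted, 7 of the 10 were lower and 0 higher, against 3476 lower and 3955 higher of the 21813 genes tested. After GC correction 8 of the 10 fell, Lamb2 and Nid2 being added. The share of all genes that fell on corrected levels in this comparison is not given here. At the first step the correction raised the genes called lower from 1352 to 2056 of 21813. Libraries did not overlap for 8 of the 10, all lower on day 4 (26.9% of all genes). This comparison shares its libraries with the others. In limma's F test over all days 9 of the 10 differed, against 28.6% of all genes, and the exception was Lama1 (adjusted p = 0.67).

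**Figure D1:**
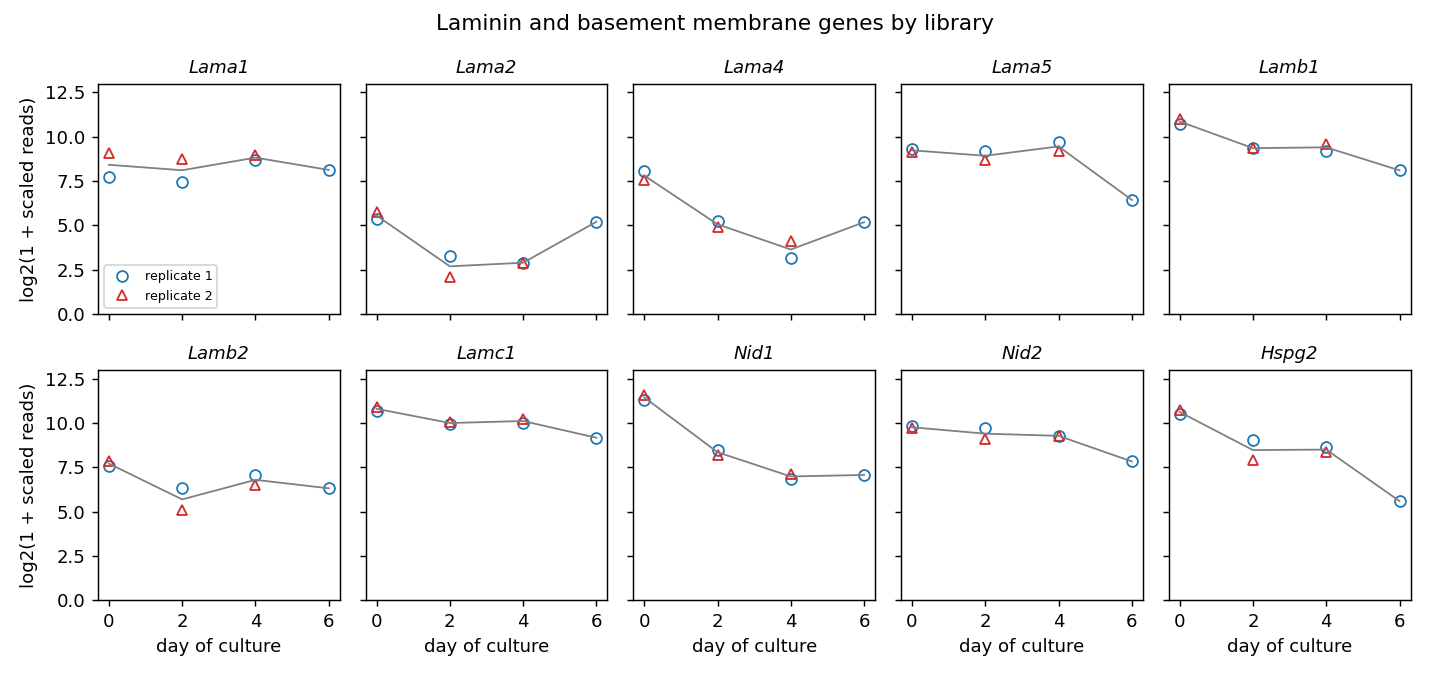
Level (log2 of 1 plus scaled reads) of each gene against day of culture, with circles for replicate 1, triangles for replicate 2 and grey lines joining the day means. Nid1 goes from 11.44 on day 0 to 6.98 on day 4, while Lama1 and Lama5 stay between 7.47 and 9.73 through day 4 and Lama5 stands at 6.44 on day 6.

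Among the alpha chains, Lama1 (chromosome 17, 67697259 to 67822647 on GRCm38, plus strand; like the others a protein-coding gene of GENCODE M21), the chain of the embryo's first laminin, was at 7.75 and 9.10 (day 0), 7.47 and 8.75 (day 2), 8.68 and 8.97 (day 4) and 8.13 (day 6). Days 0, 2 and 4 overlapped, the day 6 library lay below both of day 4, and replicate 2 was the higher library on each of the 3 replicated days, by 1.35, 1.28 and 0.28. Its differences between successive days were -0.31 (SE 0.53), 0.71 (SE 0.53) and -0.69 (SE 0.65), with limma adjusted p = 0.772, 0.502 and 0.589. The gaps between replicates on days 0 and 2 exceeded each of these differences.

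Lama5 (chromosome 2, 180176373 to 180225859, minus strand), the alpha chain of most later epithelia, was at 9.32 and 9.16 (day 0), 9.19 and 8.67 (day 2), 9.73 and 9.18 (day 4) and 6.44 (day 6). It overlapped between days 0, 2 and 4 and was lowest in the day 6 library. Its difference was -0.31 (SE 0.24, limma adjusted p = 0.485) at the first step and 0.53 (SE 0.24, adjusted p = 0.276) at the second. From day 4 to day 6 it fell 8.09-fold (log2 -3.02, SE 0.30, limma adjusted p = 0.0144). Lama5 transcripts hold 59.9% GC, and on levels corrected for GC content the fall was -1.99 (adjusted p = 0.00257).

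Lama4 (chromosome 10, 38965515 to 39110188, plus strand), a chain of vessel and mesenchymal laminins, was at 8.06 and 7.57 (day 0), 5.24 and 4.89 (day 2), 3.19 and 4.10 (day 4) and 5.18 (day 6). Each replicated day lay below the one before with no overlap. It fell 6.73-fold at the first step (log2 -2.75, SE 0.38, limma adjusted p = 0.00735), and its difference of -1.42 at the second did not pass (SE 0.38, adjusted p = 0.0969; 0.0423 when the test was limited to the 11800 genes averaging log2 of 11 or more). The day 6 library stood 1.54 above the day 4 mean (SE 0.47, adjusted p = 0.102; 0.0485 with that same minimum).

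Lama2 (chromosome 10, 26980036 to 27619758, minus strand), the chain of muscle and peripheral nerve, was the lowest member per length in every library (0.20 to 3.23 scaled reads per kilobase of exon). Its levels were 5.37 and 5.75 (day 0), 3.30 and 2.08 (day 2), 2.90 and 2.90 (day 4) and 5.21 (day 6). It fell 7.29-fold to day 2 (log2 -2.87, SE 0.49, limma adjusted p = 0.0147), and since the value of day 2 replicate 2 lies under the level of 3 reads (2.25) the size of that fall is poorly set. The day 6 library was 2.31 above the day 4 mean (SE 0.60, adjusted p = 0.0775; 0.0344 with the mean-level minimum). An antisense transcript, Gm48084, covers 3.9% of the Lama2 exon length, and no source used here says if strand was used in counting. Summed muscle markers (5 genes) were at 4.41 to 5.99 and summed endothelial markers (6 genes) at 6.46 to 8.28. Through day 4 the endothelial sum was led by Pecam1 alone, at 5.89 to 7.98. Myod1 was at 1.20 or less in every library and Cdh5 at 0.40 to 3.63. The part of muscle and endothelial cells in these levels was not tested.

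Lamc1 was the most abundant laminin chain per length in every library. Lamb1 (chromosome 12, 31265234 to 31329644, plus strand), which encodes the beta 1 chain, was at 10.75 and 10.98 (day 0), 9.36 and 9.37 (day 2), 9.22 and 9.60 (day 4) and 8.11 (day 6). It stepped down at the first and at the last step. It fell 2.83-fold to day 2 (log2 -1.50, SE 0.16, limma adjusted p = 0.00333), differed by 0.05 from day 2 to day 4 (SE 0.16, adjusted p = 0.96) and fell 2.46-fold to day 6 (log2 -1.30, SE 0.20, adjusted p = 0.0268).

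Lamc1 (chromosome 1, 153218922 to 153332786, minus strand), the gamma 1 chain shared by most laminins, went down at the same 2 steps, by less. Its levels were 10.68 and 10.91 (day 0), 9.96 and 10.03 (day 2), 10.02 and 10.20 (day 4) and 9.17 (day 6). The first step was a 1.74-fold fall (log2 -0.80, SE 0.13, limma adjusted p = 0.0119), the second a difference of 0.11 (SE 0.13, adjusted p = 0.662) and the last a 1.92-fold fall (log2 -0.94, SE 0.16, adjusted p = 0.0322). The last call was lost after correction for GC content (-0.59, adjusted p = 0.0894).

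Lamb2 (chromosome 9, 108479736 to 108490530, plus strand), the beta 2 chain of kidney filter and nerve-muscle junction, was at 7.57 and 7.85 (day 0), 6.31 and 5.07 (day 2), 7.06 and 6.53 (day 4) and 6.32 (day 6). Day 2 was the lowest day, with its replicates 1.24 apart. The gene fell 4.05-fold to day 2 (log2 -2.02, SE 0.42, limma adjusted p = 0.0274), and the later differences of 1.10 (adjusted p = 0.191) and -0.48 (adjusted p = 0.634) did not pass. Corrected for GC content, its last difference was 0.47 (adjusted p = 0.471), so its direction at that step was not set, and its day 4 level was below that of day 0 (-1.18, adjusted p = 0.0142, against -0.92 and adjusted p = 0.18 uncorrected).

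Of the linkers, Nid1 (chromosome 13, 13437551 to 13512269, plus strand), the nidogen that joins laminin to collagen IV, had the highest level per length of the 10 genes on day 0, at 358 and 448 scaled reads per kilobase. Its levels were 11.28 and 11.60 (day 0), 8.48 and 8.21 (day 2), 6.82 and 7.15 (day 4) and 7.07 (day 6). No library of a later replicated day reached the day before. Nid1 fell 8.53-fold to day 2 (log2 -3.09, SE 0.19, limma adjusted p = 0.000643) and a further 2.58-fold to day 4 (log2 -1.37, SE 0.19, adjusted p = 0.0199), and differed by little from there (0.09, SE 0.23, adjusted p = 0.91). Its net difference of -4.46 between days 0 and 4 (adjusted p = 0.000141) was the 1 member call that held without any 1 library in turn (adjusted p = 0.00862 to 0.0493). The antisense transcript Gm48682 covers 2.1% of its exon length.

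Nid2 (chromosome 14, 19751265 to 19811787, plus strand), the second nidogen, did not share that course. Its levels were 9.80 and 9.71 (day 0), 9.70 and 9.09 (day 2), 9.26 and 9.29 (day 4) and 7.83 (day 6). Both day 4 libraries lay below both of day 0, and the day 6 library was the lowest. Its differences were -0.36 (SE 0.20, limma adjusted p = 0.324) and -0.12 (SE 0.20, adjusted p = 0.795), then a 2.72-fold fall to day 6 (log2 -1.45, SE 0.25, adjusted p = 0.0339; -0.94 corrected for GC content, adjusted p = 0.0241). Day 4 against day 0 was not called (-0.48, adjusted p = 0.145), but it was without day 2 replicate 1 (adjusted p = 0.0338), without day 2 replicate 2 (0.0327) and after GC correction (-0.68, adjusted p = 0.00861). Exons of Rtraf, a protein-coding gene on the other strand, overlap 8.4% of the Nid2 exon length.

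Hspg2 (chromosome 4, 137468769 to 137570630, plus strand) encodes perlecan, whose heparan sulfate chains hold growth factors such as FGFs. It was at 10.51 and 10.73 (day 0), 9.02 and 7.93 (day 2), 8.65 and 8.35 (day 4) and 5.59 (day 6). Like Lamb1 and Lamc1 it went down at the first and the last step. It fell 4.43-fold to day 2 (log2 -2.15, SE 0.34, limma adjusted p = 0.0115), differed by 0.03 to day 4 (SE 0.34, adjusted p = 1) and fell 7.49-fold to day 6 (log2 -2.90, SE 0.41, adjusted p = 0.0233). Its transcript has the highest GC content of the 10 genes (60.9%), and corrected for GC content the day 6 fall was -1.81 (adjusted p = 0.00517).

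**Figure D2:**
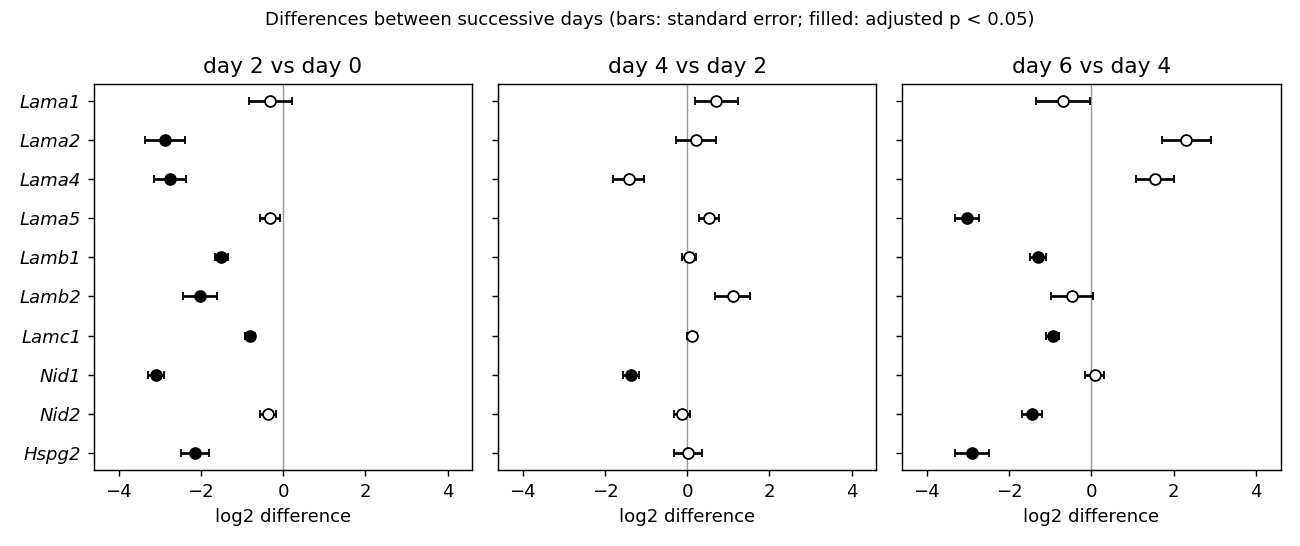
Log2 difference of each gene for the 3 successive comparisons, with bars of 1 standard error and filled symbols where limma's adjusted p is below 0.05. Filled symbols number 7 at the first step, 1 (Nid1) at the second and 5 at the last, and all lie below 0.

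These calls rest on few libraries. Leaving out any 1 library also lowered the number of all genes called at each step, so a lost call does not set these genes apart. Without day 0 replicate 1 or 2, or day 4 replicate 1, limma called 0 of the 10 at the first step; without day 2 replicate 1 it called 3 (Nid1, Lama2, Hspg2), without day 2 replicate 2 it called 1 (Nid1) and without day 4 replicate 2 it called 3 (Nid1, Lama4, Lamb1), while the 7 log2 differences kept their sign and stayed within 1.5 times their size. At the second step the call of Nid1 was lost without any 1 library, with log2 differences of -1.53 to -1.20. At the last step 3 calls (Lama5, Nid2, Hspg2) held without either day 2 library and 0 without any library of days 0 or 4.

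Between genes, levels can be set side by side only per length, here as scaled reads per kilobase of exon (GENCODE M21 gene models, GRCm38), a linear scale. On day 0 the beta chains summed to 204 and 242 and Lamc1 stood at 198 and 233, a beta to gamma ratio of 1.03 and 1.04. On days 2 and 4 the beta sum was 71.9 to 93.0 and Lamc1 121 to 142, a ratio of 0.57 to 0.65, and on day 6 the ratio was 0.59. The 4 alpha chains together came to 0.52 and 0.54 of Lamc1 (day 0), 0.61 and 0.65 (day 2), 0.94 and 0.73 (day 4) and 0.60 (day 6). The beta sum exceeded the alpha sum in both day 0 libraries (alpha 103 and 125) and in day 2 replicate 1 (78.8 against 73.2), and was the lower of the 2 in the other 4 libraries (on day 6, 40.6 against 41.6). These ratios are descriptions with no test and no correction for GC content, and which exons were counted is not given.

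**Figure D3:**
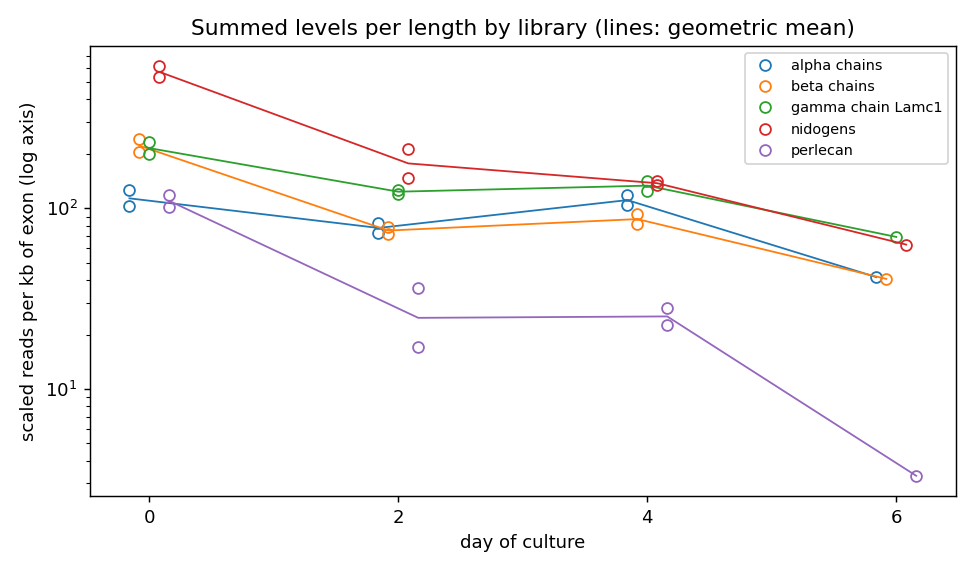
Summed scaled reads per kilobase of exon (log axis) for alpha chains, beta chains, Lamc1, nidogens and perlecan against day, with 1 circle per library and lines through geometric means of a day. The nidogens drop from 531 and 610 on day 0 to 62.9 on day 6 and perlecan from 102 and 118 to 3.31. Values are not corrected for GC content.

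Within the alpha chains, Lama1 and Lama5 made up most of the per-length total in every library. Lama4 held 21.5% and 12.5% of it at day 0 and 0.57% and 1.28% on day 4. The Lama5 share was 54.6% and 40.0% (day 0), 70.1% and 43.1% (day 2), 63.2% and 48.9% (day 4) and 18.2% (day 6), so Lama1 was the main alpha chain on day 6, at 69.5%. The ratio of Lama1 to Lama5 split by replicate rather than by day through day 4. It was 0.40, 0.36 and 0.57 in replicate 1 and 1.13, 1.25 and 1.01 in replicate 2, and 3.83 in the day 6 library, which carries the number 1. These shares and ratios are not corrected for GC content. On GC-corrected levels the day 6 library had Lama1 at 8.39 and Lama5 at 7.12, against 8.13 and 6.44 uncorrected.

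The nidogen pair exchanged places. Nid1 made up 67.5% and 73.4% of the nidogen total per length at day 0, 24.3% and 28.8% (day 2), 12.0% and 14.4% (day 4) and 30.5% (day 6). Lamb1 remained the main beta chain in every library, between 68.2% (day 6) and 92.6% (day 2 replicate 2).

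**Figure D4:**
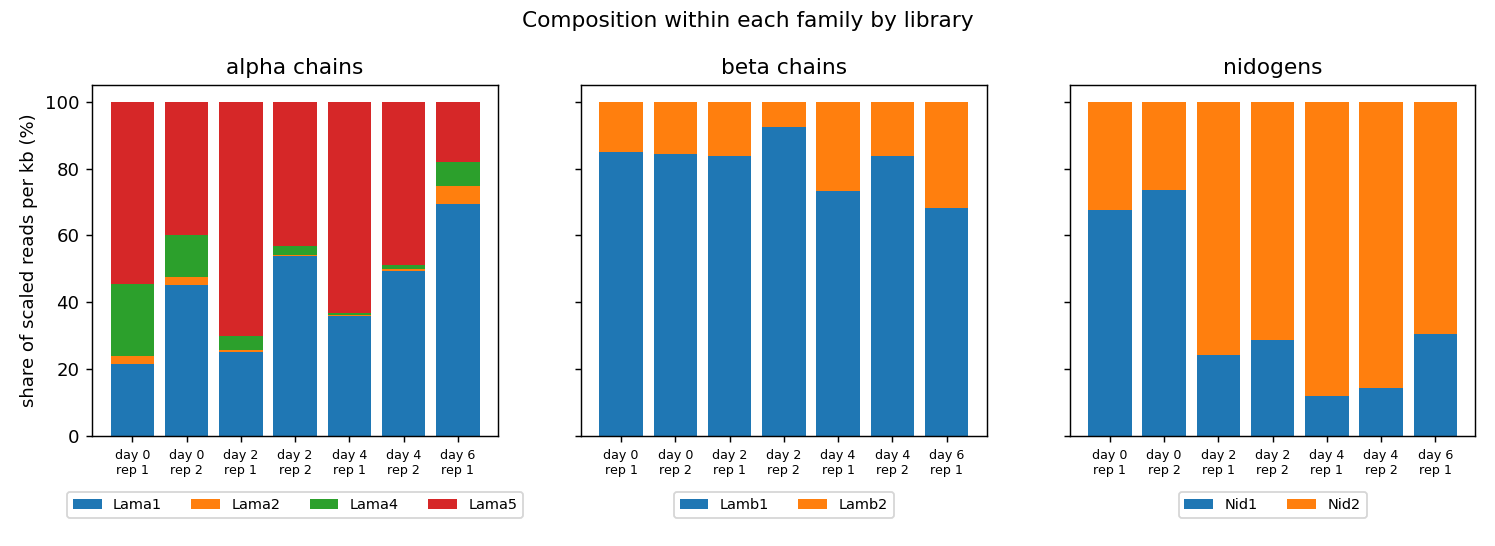
Share (%) of each gene in the per-length total of its family, for alpha chains, beta chains and nidogens, with 1 bar per library. Nid1 goes from 73.4% in day 0 replicate 2 to 12.0% in day 4 replicate 1. Lama1 is at 69.5% in the day 6 library and at 53.8% in day 2 replicate 2. Shares are not corrected for GC content.

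Feeder fibroblast markers moved with the first step. Of 12 markers 10 fell from day 0 to day 2 (median log2 -3.79), 7 fell from day 2 to day 4 (median -1.87) and 0 were called from day 4 to day 6 (limma; unadjusted, 5 higher and 0 lower). Among them Lox, a collagen cross-linker, went from 10.58 and 10.68 to 2.73 and 3.38 on day 2, and Dcn, decorin, from 7.74 and 6.95 to 7.12 and 7.0. Xist, the RNA of an inactive X chromosome, fell by 2.40 to day 2 and by a further 3.08 to day 4. Nid1, which fell at the same 2 steps as these markers, and Lama4, Lama2, Lamb2, Hspg2, Lamb1 and Lamc1, which fell at the first, therefore changed between libraries whose fibroblast markers fell too. The part of feeder cells in these falls was not tested. In bulk RNA, fewer cells of a type and less RNA per cell cannot be told apart.

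Markers of extraembryonic endoderm, the tissue that lays down much laminin 1 in the early embryo, moved with the replicate number. Of the 8 of 12 markers averaging log2 of 11 or more, 7 (all but Thbd) were higher in replicate 2 than in replicate 1 on all 3 replicated days, a pattern seen in 12.5% of the 11800 genes at that level and noticed after the values were seen. With the 4 lower markers (Hnf4a, Afp, Ttr and Amn), some of whose values are those of a few reads, the count was 10 of 12. Cubn, an endocytic receptor, was at 7.16 and 8.66 (day 0), 5.59 and 8.31 (day 2) and 5.14 and 7.07 (day 4), and Gata6, an endoderm factor, at 4.23 and 5.02, 3.36 and 4.70, and 3.61 and 4.69. Of the 10 members 3 (30%), Lama1, Lamb1 and Lamc1, were higher in replicate 2 on all 3 days. The gaps were 0.28 to 1.35 for Lama1, 0.01 to 0.38 for Lamb1 and 0.07 to 0.23 for Lamc1, while Lama5 was lower by 0.16, 0.52 and 0.55. On GC-corrected levels Lama5 was at 9.312 and 9.082 (day 0), 8.889 and 8.895 (day 2) and 9.280 and 8.945 (day 4), so its day 2 gap was not seen there. The summed level of the 12 markers was 12.28, 9.68 and 9.34 in replicate 1 and 12.81, 10.50 and 10.38 in replicate 2, and 10.10 on day 6. It is led by Sparc, which fibroblasts make too. Afp, an abundant visceral endoderm gene, was listed at 0 in 5 of 7 libraries. The part of such cells in the Lama1 levels was not tested.

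**Figure D5:**
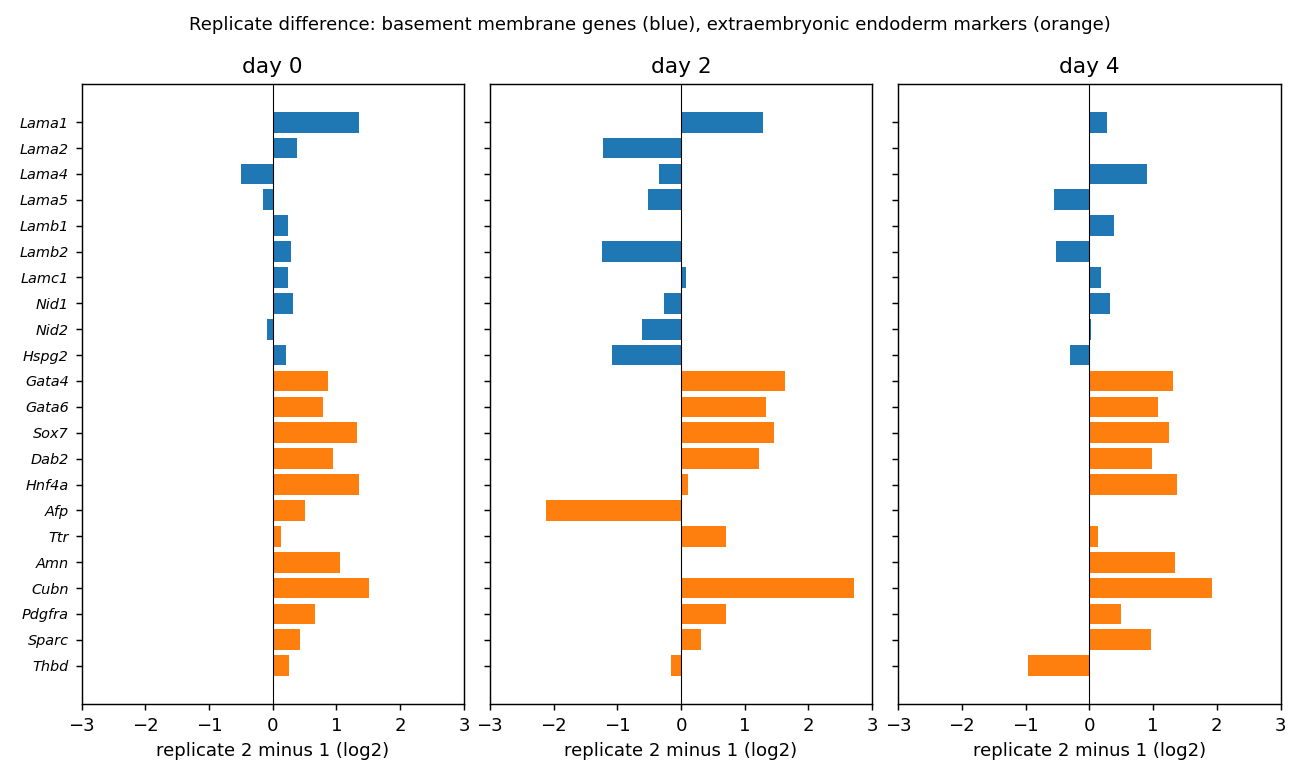
Level in replicate 2 minus level in replicate 1 (log2) on days 0, 2 and 4, for the 10 basement membrane genes in blue and 12 extraembryonic endoderm markers in orange. Lama1 is positive on all 3 days (1.35, 1.28 and 0.28), as are 10 of the 12 markers, while Lama5 is negative on all 3. Levels are not corrected for GC content.

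The partners of these genes in the basement membrane fell in part at the first step. Of 22 collagen IV chains and other basement membrane components, 9 fell and 1 rose from day 0 to day 2 by limma (median -0.75), 1 rose from day 2 to day 4 and 0 were called from day 4 to day 6 (unadjusted, 5 higher and 4 lower). Col4a1 and Col4a2, the main collagen IV chains, which share a promoter region, fell by 1.79 (adjusted p = 0.00925) and by 2.13 (adjusted p = 0.00551). The largest falls were those of Fbln2, a fibulin of fibroblast matrix (-6.20, adjusted p = 0.000513), Tinagl1 (-5.10, adjusted p = 0.00377) and Smoc2 (-4.10, adjusted p = 0.00293). The 1 riser was Fras1, a protein that anchors epithelia to the matrix, from 4.23 and 3.75 to 7.57 and 7.48 (3.53, adjusted p = 0.000679), and its complex partner Frem1 was the 1 called at the second step, from 4.53 and 3.47 to 8.14 and 7.44 (3.79, adjusted p = 0.0139). Agrn, agrin, another heparan sulfate proteoglycan, and Col18a1 were not called at any of the 3 steps.

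Of 17 laminin receptors and adhesion linkers 8 fell and 0 rose at the first step (unadjusted, 10 lower and 0 higher; median -0.77). They were led by Parva, an actin linker at integrin sites (-3.14, adjusted p = 0.000496), Itga2, an integrin chain for collagen and laminin (-2.40, adjusted p = 0.0391) and Itgb1, the beta chain of most laminin-binding integrins (11.89 and 12.04 to 9.82 and 10.19; -1.96, adjusted p = 0.00289). Itga6, the alpha chain that pairs with it on laminin, was at 8.61 and 8.69 (day 0), 8.85 and 8.96 (day 2), 9.10 and 9.30 (day 4) and 9.00 (day 6), and Dag1, dystroglycan, between 9.49 and 10.37 throughout. Neither was called at any of the 3 steps, but Itga6 rose from day 0 to day 4 (0.55, adjusted p = 0.0269). At the second step 2 rose, Sgce, a sarcoglycan (1.47, adjusted p = 0.0393), and Parva (1.33, adjusted p = 0.0143). At the last, Bcam, a receptor of laminin alpha 5 (-2.50, adjusted p = 0.0443), and Itga3 (-1.61, adjusted p = 0.0271) fell, and Parva rose (0.94, adjusted p = 0.0483). These differences rest on the single day 6 library, and GC-corrected values are not given for them. Of the genes that put the laminin-binding sugar on dystroglycan 0 of 16 tested were called by limma at any of the 3 steps. Unadjusted, 3, 3 and 2 of the 16 passed, against 5862, 4713 and 5513 of all 21813 genes tested.

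Among makers and breakers of the matrix, 5 of 10 genes of collagen processing fell at the first step and 0 rose (unadjusted, 7 lower and 0 higher), led by Plod3 (-1.71), Serpinh1, the collagen chaperone (-1.43), and P4ha1 (-1.40). Of 10 matrix proteases and inhibitors 6 fell, led by the metalloprotease inhibitors Timp1 (-4.09), Timp2 (-3.44) and Timp3 (-3.43), Timp2 fell again at the second step (-1.42, limma adjusted p = 0.0147), and Timp3 rose to day 6 (2.07, adjusted p = 0.0122). Of 9 genes of heparan sulfate synthesis and editing 4 fell, led by Ext2 (-1.07), and 1 rose, Sulf1 (0.42, adjusted p = 0.0436).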

How the data were processed

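Polyadenylated RNA of 7 libraries was sequenced from a stranded mRNA kit according to the labels' protocols. The authors deposited 1 table of natural log values of 1 plus scaled reads (a unit inferred from steps in low values), quantile normalized, since the 9273 highest values of each sorted column differ by under 0.01. All 7 columns were mapped through the labels; 1 column name has a letter O for a zero. Reads were placed on GRCm38 per the submitters' processing notes; no source used here names the aligner or counter. Values were divided by ln 2. Of 30590 rows, 103 foreign rows and 8674 genes at 0 throughout were left out. The other 21813 were fitted with limma 3.58.1 in R 4.3.3 (trend, robust; 1 mean per day; 3 residual degrees of freedom; Benjamini-Hochberg threshold 0.05). The script was tested on simulated data. Fold changes understate changes of low genes. All 10 members are named; of other lists, up to 3 called genes by size of change, and others (such as Itga6, Dag1, Agrn, Lox and Cubn) chosen after their values were seen. Members and lists were chosen with earlier results of these data known. Alternatives were other filters, pseudocounts, centring, fits and left-out libraries. The GC correction (lowess per library; 97.7% of genes) and a second centring were chosen after seeing the data.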

Additional observations from a re-analysis of the deposited data

How the results depend on the processing

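The alternatives were a mean-level minimum, a pseudocount of 8, centring, limma without trend or robust settings, the replicate block, leaving out day 6 and leaving out 1 library, plus a GC correction and a centring added after seeing the data. Under the pseudocount and either centring the members called at the 3 steps and over days 0 to 4 were as many as reported, as they were without day 6 where a comparison could be made. Limma without trend or robust called 1609, 335 and 609 genes at the 3 steps and 4, 0 and 1 members. With the mean-level minimum only 11800 genes were tested, against 21813 as reported. Of these 11800, 1422 and 2200 were called at the second and last steps. Members called were 2 at the second and 7 at the last, where Lama2 and Lama4 were called higher. On GC-corrected levels 1559 genes were called at the second step, and 1502 with the replicate block added. Centring on the median deviation, which shifts the first step by -0.12 (log2), gave 945 higher and 1579 lower there (1257 and 1352 as reported), the GC correction 1322 and 2056. The median deviation centring gave 2151 higher and 2593 lower for day 4 against day 0 (2458 and 2273 as reported). The mean-level minimum gave 1672 higher and 1278 lower of 11800 at the first step.

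The replicate numbers were not treated as pairs, since not every correlation was over 0.1. Those of replicate differences across 11800 genes were -0.06 (days 0 and 2), -0.07 (days 0 and 4) and 0.22 (days 2 and 4), the last pair thus deviating together. The correlation with GC content was 0.20 and -0.30 in the day 2 libraries, so these values cannot decide whether the replicates were paired. Column names share a code among libraries of the same replicate number. The replicate block called 2243, 568 and 606 genes at the 3 steps, 4295 for day 4 against day 0 and 5093 by the F test, with the members called unchanged in number (7, 1, 5, 6 and 9).

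Without 1 library in turn, genes called ran from 0 to 691, 0 to 0 and 0 to 295 at the 3 steps, 163 to 4152 for day 4 against day 0 and 0 to 4181 by the F test, and members called from 0 to 3, 0 to 0, 0 to 3, 1 to 7 and 0 to 9. Genes with an unadjusted p under 0.05 then still numbered 3511 to 5139 at the second step. The fit has 2 residual degrees of freedom in place of 3, and a lone library is assumed to vary like the others.

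Differences that changed sign were all uncalled. Leaving out 1 library, Lama1 ran from -0.98 to 0.37 at the first step (0.37 without day 0 replicate 2, 0.33 without day 2 replicate 1) and from -0.27 to 1.08 for day 4 against day 0. At the second step Lama2 ran from -0.40 to 0.82, Lamb1 from -0.15 to 0.24, Nid2 from -0.43 to 0.18 and Hspg2 from -0.52 to 0.57. Nid1 ran from -0.078 to 0.25 at the last step and Lama5 from -0.054 to 0.49 for day 4 against day 0. GC-corrected, with and without the replicate block, Lamb1 was at -0.030 and Hspg2 at -0.30 at the second step and Lama5 at -0.084 for day 4 against day 0; at the last step Lamb2 was at 0.47, or 0.32 with the block, and Lama1 at 0.26 with the block. The cause was not tested.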
